A study of Homo sapiens with 6 samples.

Results

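The zinc finger gene clusters of chromosome 19 were examined for RNA sites of DHX9 in HEK293, an established human embryonic kidney line. The members were the peaks of either DHX9 list whose midpoint lay in 1 of 7 intervals of chromosome 19 in the assembly hg19. These intervals ran from 9.2 to 9.9 Mb (Z1), 11.7 to 12.8 Mb (Z2), 20 to 24.1 Mb (Z3), 36.7 to 38.4 Mb (Z4), 44.3 to 45 Mb (Z5), 52.3 to 54 Mb (Z6) and 56.6 to 59.1 Mb (Z7), 12.5 Mb in all. They held 261 of the 6831 DHX9-mAb peaks and 681 of the 21618 DHX9-Rb peaks. The rule used positions alone and no measured value.

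Zinc finger genes of this kind encode DNA-binding proteins built from repeated finger modules, and many carry a KRAB domain through which they repress transcription, often of transposable elements. They arose by repeated local duplication, so neighbours on the chromosome are often near copies of each other. RefSeq names 250 protein-coding genes ZNF with a number on chromosome 19, of 517 in the assembly GRCh38.p14, and up to 27 of them follow each other with no other coding gene between. DHX9, also called RNA helicase A, unwinds double-stranded RNA. In human transcripts such structures often form where Alu elements, a family of short repeats, lie in opposite orientations, and chromosome 19 is rich in both genes and Alu elements.

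Sites were mapped by FLASH, in which ultraviolet light links a protein to bound RNA, an antibody captures it and the attached RNA is sequenced. Cells of this 1 line, with no treatment named in the labels, were used throughout, with 2 biological replicates for each of 3 antibodies: DHX9-mAb from Santa Cruz, DHX9-Rb from Abcam, and the control immunoglobulin IgG-Rb. The values are 2 lists of peak regions, 1 per DHX9 antibody, each standing for both replicates, and the IgG-Rb samples were not analysed here. The lists give position and strand with no height, so depth, replicate error and background level are unknown. Near-copies of a gene can share reads, and the handling of reads with several matches is not given in the sources used here, so a peak among near-copies is uncertain in its exact place. Gene positions in hg19 were not used here, so the label could not be checked against genes and regions are named by position.

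As a whole the intervals held about as many peaks for their length as the rest of chromosome 19. They had 20.9 DHX9-mAb peaks per Mb, against 16.2 in the rest of the chromosome, counted from its first to its last peak. They had 54.5 DHX9-Rb peaks per Mb, against 48.1 in the rest. The rest includes a stretch of 4.69 Mb with no peak in either list, from 24301028 to 28986225, which lies around the centromere. Without that stretch the rest had 18.0 DHX9-mAb and 53.5 DHX9-Rb peaks per Mb, so the intervals stood at 1.16 times and 1.02 times its density. With that stretch included, the intervals made up 21.3% of the length from the chromosome's first to its last peak. They held 25.8% of its DHX9-mAb peaks and 23.4% of its DHX9-Rb peaks. Without a single run of peaks, Z7a, left out after its values were seen, the intervals had 16.9 DHX9-mAb and 46.8 DHX9-Rb peaks per Mb. The DHX9-mAb value then lies between the values for the rest with and without the empty stretch, 16.2 and 18.0, and the DHX9-Rb value is below both, 48.1 and 53.5. No run was left out of the rest, and the full length of the intervals was kept, so this comparison is lopsided. Intervals are not replicates, so densities are given without a test.

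That average covered very unlike clusters. Z4 was the densest, with 112 DHX9-mAb peaks (65.9 per Mb) and 282 DHX9-Rb peaks (166 per Mb). That was 4.06 times the density of the rest of the chromosome with DHX9-mAb and 3.45 times with DHX9-Rb. Z7 followed with 109 DHX9-mAb peaks (43.6 per Mb) and 255 DHX9-Rb peaks (102 per Mb), or 2.69 and 2.12 times the rest. Together Z4 and Z7, a pair picked out after their values were seen, took up 33.6% of the interval length and held 84.7% of the DHX9-mAb and 78.9% of the DHX9-Rb peaks of the intervals.

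Z2 and Z5 lay near the level of the rest of the chromosome. Z5 had 17 DHX9-mAb peaks (24.3 per Mb) and 39 DHX9-Rb peaks (55.7 per Mb). Z2 had 12 DHX9-mAb peaks (10.9 per Mb) and 53 DHX9-Rb peaks (48.2 per Mb), so it was below the rest with DHX9-mAb (0.673 times) and level with it with DHX9-Rb (1.0 times).

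Z1, Z3 and Z6 were almost free of peaks. Z3, the longest cluster at 4.1 Mb and the one next to the centromere, had 9 DHX9-mAb peaks (2.2 per Mb) and 31 DHX9-Rb peaks (7.56 per Mb). Z1 had 2 DHX9-mAb peaks (2.86 per Mb) and 5 DHX9-Rb peaks (7.14 per Mb). Z6 had no DHX9-mAb peak and 16 DHX9-Rb peaks (9.41 per Mb). With both antibodies these 3 clusters stood at or under 0.196 times the rest of the chromosome. RNA levels were not measured in these files, so few peaks and little RNA from a cluster cannot be told apart. The order of the clusters by density was the same with both antibodies from Z4 through Z7, Z5 and Z2, and differed among the sparse ones, which rest on 16 peaks or fewer in a list except for Z3 with DHX9-Rb.

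**Figure D1:**
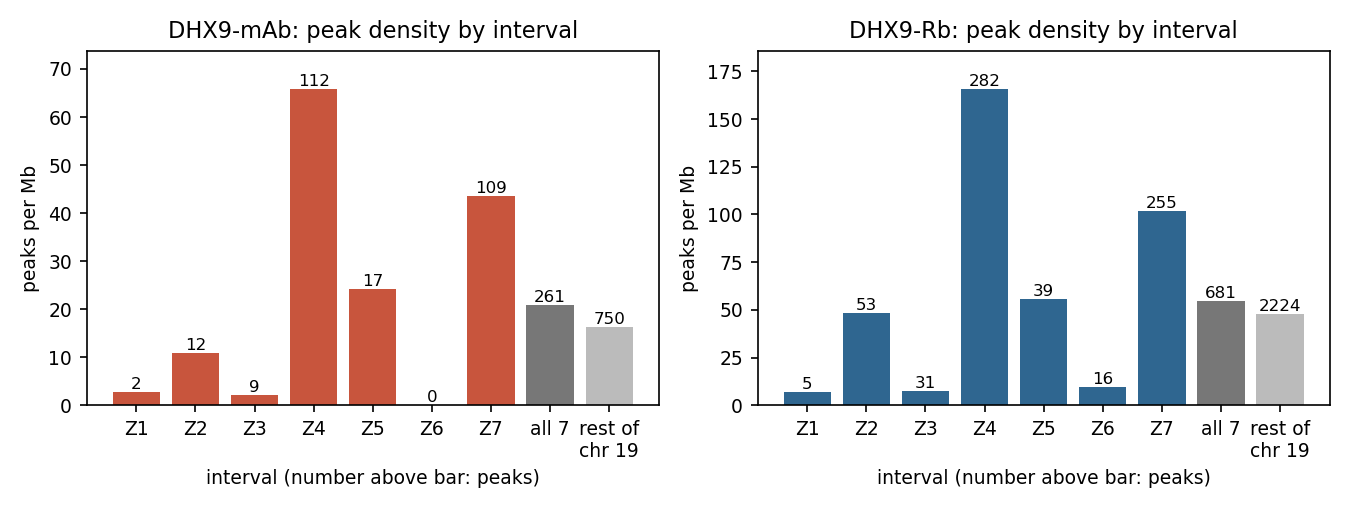
Peaks per Mb in each interval, in all 7 together and in the rest of chromosome 19, with DHX9-mAb on the left and DHX9-Rb on the right; the number of peaks stands above each bar, and there are no replicate values. Z4 (65.9 and 166 per Mb) and Z7 (43.6 and 102 per Mb) stand above the rest of the chromosome (16.2 and 48.1 per Mb), and Z1, Z3 and Z6 stand far below it.

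Within a cluster the peaks were gathered in few stretches, apart from Z4. Of the 125 windows of 100 kb in the intervals, 37 held a DHX9-mAb peak, 60 a DHX9-Rb peak and 65 neither (52%, against 55.1% of the 463 windows in the rest). All 37 windows with a DHX9-mAb peak also held a DHX9-Rb peak. Z4 had a DHX9-Rb peak in all 17 of its windows and a DHX9-mAb peak in 15 of them, with a median of 4 DHX9-mAb and 12 DHX9-Rb peaks per window. In Z2 only 2 of 11 windows were empty, but the windows from 11700001 (5 DHX9-mAb and 20 DHX9-Rb peaks) and 12700001 (6 and 19) held most of its peaks. In Z3 33 of 41 windows were empty, 12 of them in a row from 20000001 to 21200000. Another row of empty windows, just as long, ran from 22100001 to 23300000.

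Z7 was split into an empty and a crowded part. No peak of either list lay in the 10 windows from 56700001 to 57700000. The last 10 windows, from 58100001 on, a stretch chosen after its values were seen, held 107 of the 109 DHX9-mAb peaks and 248 of the 255 DHX9-Rb peaks. Over that last 1.0 Mb this came to 107 DHX9-mAb and 248 DHX9-Rb peaks per Mb. Z5 was also uneven, with 13 of its 17 DHX9-mAb peaks and 31 of its 39 DHX9-Rb peaks in the window from 44700001 to 44800000.

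The crowded windows were few. The 5 windows richest in DHX9-mAb held 46.7% of the DHX9-mAb peaks of the intervals, and the 5 richest in DHX9-Rb held 39.8% of the DHX9-Rb peaks. In the rest of the chromosome the 5 richest held 21.2% and 13.6%. The rest has 463 windows against 125, so these shares do not show that the intervals were more concentrated. Windows with 10 or more DHX9-Rb peaks made up 17.6% of those in the intervals and 16.4% of those in the rest. The window from 58300001 to 58400000 in Z7 was the most crowded, with 39 DHX9-mAb and 74 DHX9-Rb peaks. The window from 37800001 to 37900000 in Z4 came next, with 32 and 52.

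**Figure D2:**
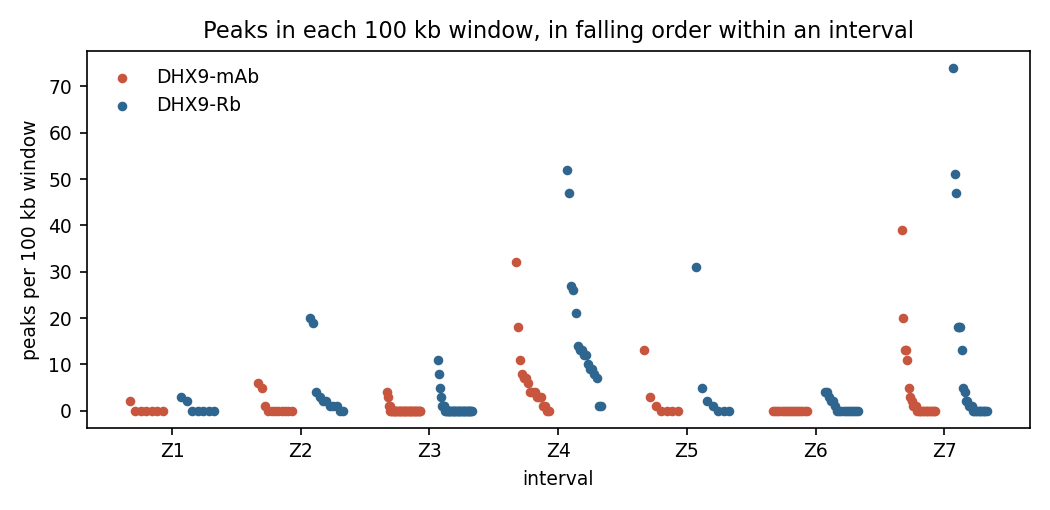
Number of peaks in every 100 kb window of the 7 intervals, in falling order within an interval, with DHX9-mAb points left of DHX9-Rb points; each point is 1 window. The points of Z4 fall off slowly, while Z7 has a few windows of up to 39 DHX9-mAb and 74 DHX9-Rb peaks and many at 0.

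Peaks came in runs along a strand. A run was taken as peaks of either list on 1 strand with at most 10 kb from the end of one to the start of the next. Runs were not tied to transcripts. The intervals held 106 runs with 941 peaks, of which 49 runs (46.2%) had peaks of both antibodies, 2 had DHX9-mAb peaks alone and 55 had DHX9-Rb peaks alone. In the rest of the chromosome 163 of 340 runs (47.9%) had both. A run of the intervals had a median of 3.0 peaks (4.0 in the rest), and 30.2% had a single peak (24.1% in the rest). The 11 runs with 20 or more peaks held 55.9% of the peaks in runs, close to the 53.8% held by 43 such runs in the rest. By the shares of runs with both antibodies and of peaks in large runs, the grouping was similar over the 7 intervals together and outside them. Runs of a single peak were somewhat more frequent in the intervals, and the largest run had 146 peaks there and 91 in the rest. Single clusters differed both in the number of runs, with 21.8 per Mb in Z4, 9.6 in Z7 and 2.93 in Z3, and in their size. Runs of 20 or more peaks held 80.5% of the peaks in runs of Z7, 47.8% in Z4 and 32.3% in Z2, and there were none in Z1, Z3 and Z6.

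The largest run on the chromosome, Z7a, lay in Z7. It ran on the plus strand from 58281540 to 58385035 and held 50 DHX9-mAb and 96 DHX9-Rb peaks over 103 kb. Its peaks were not evenly spread. With a gap of at most 5 kb it broke into 5 pieces. The piece from 58281540 to 58310613 had 15 DHX9-mAb and 36 DHX9-Rb peaks, and the piece from 58347865 to 58379530 had 28 and 40. Between these lay 2 smaller pieces with 20 and 6 peaks of both lists, and a single DHX9-Rb peak ended the run. Whether Z7a is 1 transcript or several on the same strand cannot be read from the lists.

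The other large runs of Z7 also lay on the plus strand, with 1 exception. Run Z7b, from 58764412 to 58796492, had 11 DHX9-mAb and 38 DHX9-Rb peaks. Run Z7c, from 58197853 to 58239638, had 12 and 34. Among runs with 20 or more peaks, Z7d was the exception, on the minus strand from 59074764 to 59080653, close to the end of the chromosome. It packed 13 DHX9-mAb and 14 DHX9-Rb peaks into 5.89 kb, almost equal numbers, where the intervals as a whole had 38.3 DHX9-mAb peaks for each 100 DHX9-Rb peaks. DHX9-mAb peaks covered 56.9% of its length and DHX9-Rb peaks 74.1%.

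In Z4 the largest run, Z4a, was shorter and more tightly filled than Z7a, with DHX9-mAb peaks over 34.9% of its length and DHX9-Rb peaks over 57.2%, against 11.6% and 26.9% in Z7a. It ran on the plus strand from 37817858 to 37838146 and counted 28 DHX9-mAb and 43 DHX9-Rb peaks in 20.3 kb. Run Z4b, from 36706379 to 36734331 on the same strand, had 18 and 47. Run Z4c, from 37735456 to 37751994, also plus, had 11 and 21. These 3 runs held 42.7% of the peaks in the runs of Z4, against 66.2% for the 3 largest of Z7, and the other 34 runs of Z4 held 20 peaks at most.

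The remaining clusters had smaller runs. In Z5, run Z5a on the minus strand from 44763874 to 44779283 had 9 DHX9-mAb and 15 DHX9-Rb peaks. Runs Z5b, from 44731610 to 44738217, and Z5c, from 44665504 to 44671840, both plus, had 3 and 6 peaks and 3 and 4 peaks. In Z2, run Z2a on the plus strand from 11755610 to 11780909 had 5 and 16. Run Z2b, minus, from 12781702 to 12795664, had 3 and 8, and Z2c, plus, from 12736103 to 12743432, had 1 and 6. In Z3, run Z3a on the minus strand from 23548063 to 23552129 had 4 and 10, which is 14 of the 40 peaks of that cluster within 4.07 kb. Runs Z3b, from 22010090 to 22017165, and Z3c, from 22028351 to 22031968, both minus, held no shared peak. No run of Z1 or Z6 had more than 5 peaks. The largest of Z1, from 9635140 to 9636219 on the minus strand, had 2 DHX9-mAb and 3 DHX9-Rb peaks. The largest of Z6, from 53428474 to 53437098 on the minus strand, had 4 DHX9-Rb peaks.

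**Figure D3:**
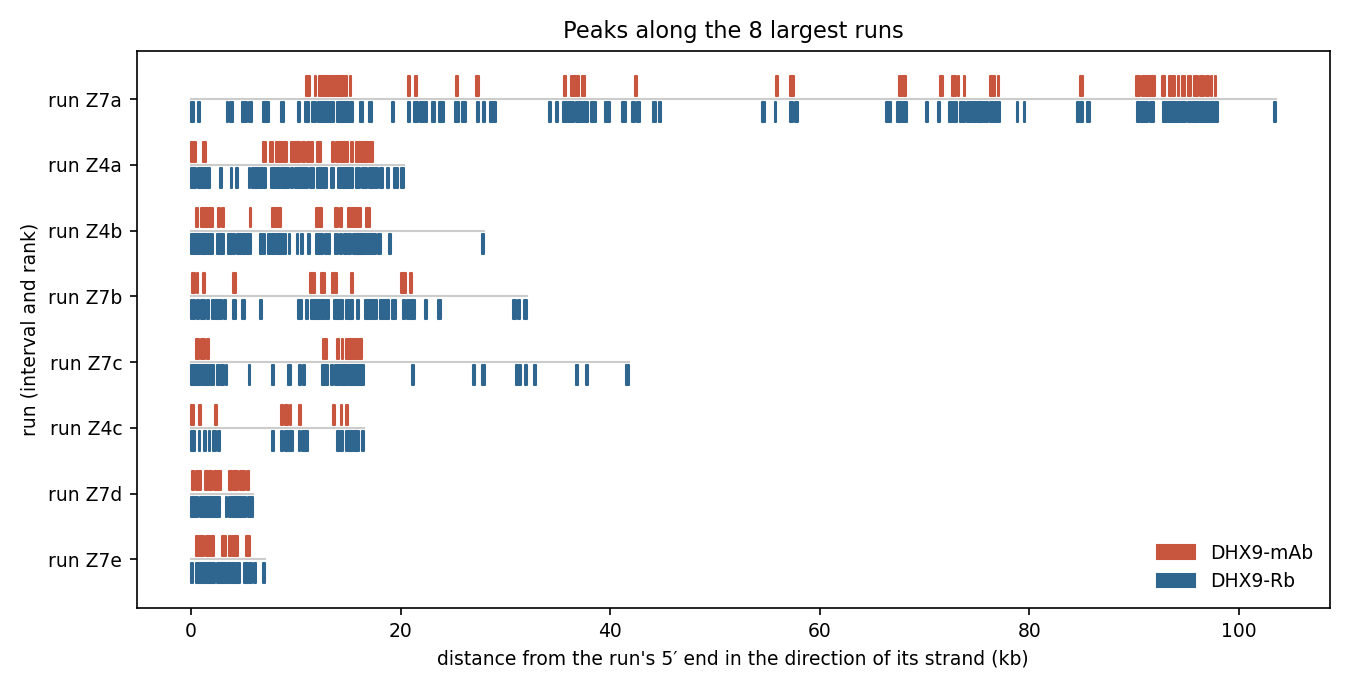
Position of every peak along the 8 runs with the most peaks, as distance in kb from the 5′ end of the run in the direction of its strand; DHX9-mAb peaks are drawn above the line and DHX9-Rb peaks under it. DHX9-mAb peaks sit among packed DHX9-Rb peaks in places, as from about 6.9 to 17.4 kb in run Z4a and about 90 to 98 kb in Z7a. Other packed DHX9-Rb stretches have no DHX9-mAb peak, as from about 74.0 to 76.0 kb in Z7a and 15.8 to 19.5 kb in Z7b. Sparse DHX9-Rb peaks often have no DHX9-mAb peak beside them.

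The plus strand held most peaks of the intervals, with the largest share in Z7. The plus strand held 70.9% of the DHX9-mAb peaks of the intervals (185 of 261; 95% Wilson interval 65.1 to 76.1) and 58.9% (55.4 to 62.4) in the rest of the chromosome. It held 66.1% of the DHX9-Rb peaks of the intervals (62.4 to 69.5) and 62.2% (60.2 to 64.2) in the rest. In Z7 these shares were 86.2% with DHX9-mAb and 87.5% with DHX9-Rb, and in Z4 they were 65.2% and 60.3%. Without run Z7a, a choice made after its values were seen, they were 64.0% and 60.5% over all 7 intervals. Wilson intervals cover counting error only, and peaks of a run share their strand, so the true uncertainty is wider.

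The sparse clusters leaned to the minus strand. In Z3, 6 of 9 DHX9-mAb and 27 of 31 DHX9-Rb peaks were on the minus strand, and in Z6, 15 of 16 DHX9-Rb peaks were. Counted by runs rather than peaks, the strands were nearly balanced, with 55 plus and 51 minus runs in the intervals. The order of the runs also differed between clusters. In Z3 the strand changed at 1 of 11 steps from a run to the next, since 4 plus runs up to 21368920 were followed by 8 minus runs from 21474310 on. In Z4 it changed at 13 of 36 steps and in Z2 at 8 of 13.

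Neighbouring peaks close to each other were on the same strand with few exceptions. For DHX9-mAb all 159 neighbours less than 1 kb apart in the intervals shared a strand, against 445 of 446 in the rest. For DHX9-Rb it was 454 of 473 (96%) in the intervals, against 1558 of 1571 (99.2%) in the rest. On a strand the median distance to the next peak was 403 nt for DHX9-mAb and 329 nt for DHX9-Rb in the intervals, and 575 nt and 336 nt in the rest.

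At a few places runs of opposite strands overlapped, 5 in the intervals. The longest was in Z4, where a plus run from 37158362 to 37167536, made of 1 DHX9-mAb and 5 DHX9-Rb peaks, lay within a minus run with 4 and 13. In Z5 a plus run from 44772989 to 44777039 with 1 and 5 peaks lay within run Z5a. Peaks that faced a peak of the other strand numbered 10 of 681 with DHX9-Rb (1.47%, against 0.54% in the rest), 4 of them in Z5 between 44775912 and 44777155, 4 in Z7 between 59077748 and 59079029 inside run Z7d, and 2 in Z4. With DHX9-mAb there were none among 261. In Z2, run Z2a ended 33 nt before a minus run with 4 DHX9-Rb peaks began, so this pair met tail to tail. Per the labels the adapters were joined to RNA ends before the cDNA was made, and how the strand was then assigned to reads is not given in the sources used here.

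Peak widths differed little between the clusters and the rest. The median DHX9-mAb peak was 210 nt wide in the intervals and 210 nt in the rest of the chromosome, with interquartile ranges of 163 to 283 nt and 159 to 274.75 nt. The median DHX9-Rb peak was 217 nt (164 to 298) in the intervals and 220.5 nt (163 to 305) in the rest. Between clusters Z7 had the widest peaks among those with more than 10 peaks in both lists, with medians of 231 nt for DHX9-mAb and 242 nt for DHX9-Rb, against 205.5 nt for both antibodies in Z4. Peaks of 400 nt or more made up 12.8% of the DHX9-mAb and 14.5% of the DHX9-Rb peaks of Z7, and 3.57% and 7.45% of those of Z4. In the rest of the chromosome such peaks made up 7.6% and 11.8%, between the values of these clusters. The widest DHX9-mAb peak of the intervals was 596 nt, in run Z4b from 36707368 to 36707963, and the widest DHX9-Rb peak was 658 nt, in run Z7a from 58377110 to 58377767. Both had a partner in the other list.

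The antibodies were compared site by site, taking as shared any peak with at least 1 nt in common with the other list on the same strand. Nearly all DHX9-mAb peaks of the intervals were shared, 245 of 261 or 93.9% (95% Wilson interval 90.3 to 96.2), against 92.1% (89.98 to 93.9) in the rest of the chromosome. Of the DHX9-Rb peaks 253 of 681 were shared, or 37.2% (33.6 to 40.8), against 31.5% (29.6 to 33.5) in the rest. The intervals also had more DHX9-mAb peaks for each 100 DHX9-Rb peaks, 38.3 against 33.7 in the rest. The share of DHX9-Rb peaks is largely limited by that ratio. A higher share therefore does not by itself show closer agreement of sites. The Wilson intervals for DHX9-Rb did not overlap, but peaks of a run are not independent, so this is a description of the lists and not a test.

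The share was higher in Z4, Z5 and Z7 than in Z2 and Z3. In Z1, the sparsest with DHX9-Rb, 2 of only 5 DHX9-Rb peaks were shared, or 40% (11.8 to 76.9). Z1 thus did not follow a rise of the share with density. It was 38.7% of DHX9-Rb peaks in Z4 (33.2 to 44.5) and 41.6% in Z7 (35.7 to 47.7). In Z5 it was 43.6% (29.3 to 59), in Z2 24.5% (14.9 to 37.6) and in Z3 19.4% (9.19 to 36.3). For each 100 DHX9-Rb peaks there were 39.7 DHX9-mAb peaks in Z4, 42.7 in Z7 and 43.6 in Z5. There were 22.6 in Z2 and 29.0 in Z3. Except in Z3 these ratios were close to the shares. None of the 16 DHX9-Rb peaks of Z6 was shared. Z6 held no DHX9-mAb peak, so this was fixed in advance and is not a separate result on the antibodies. The ranges of Z2 and Z3 overlapped those of Z4, Z5 and Z7. Overlap alone does not show that shares were equal, and no difference between clusters was tested, so they are not ranked here.

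**Figure D4:**
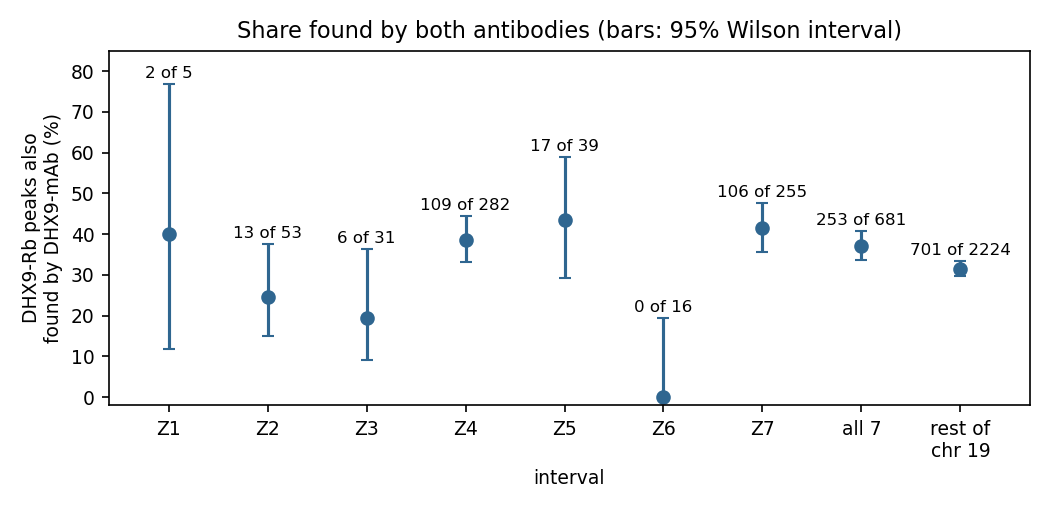
Share of DHX9-Rb peaks in each interval that overlapped a DHX9-mAb peak on the same strand, in percent, with the counts above each point; bars are 95% Wilson intervals for counting error. The points of Z4, Z5 and Z7 lie between 38.7% and 43.6%, and that of Z6, which held no DHX9-mAb peak, could only be 0. The 7 intervals together stand at 37.2% against 31.5% in the rest of the chromosome.

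Crowding moved with the share and has to be read beside it. In windows of 1 to 4 DHX9-Rb peaks, 13.8% of them were shared in the intervals and 14.9% in the rest of the chromosome. In windows of 5 to 9 peaks these shares were 32.1% (21.4 to 45.2) and 18.6% (14.7 to 23.2), and with 10 to 19 peaks they were 36.3% and 28.4%. In windows of 20 to 39 peaks they were 36% and 37.7%, and with 40 or more peaks 44.3% and 42.3%. The Wilson intervals of the clusters and the rest overlapped at all 5 levels of crowding. Overlap alone does not show that the shares were equal, and the differences within a level were not tested. The part of crowding in the higher share of the intervals was not tested.

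**Figure D5:**
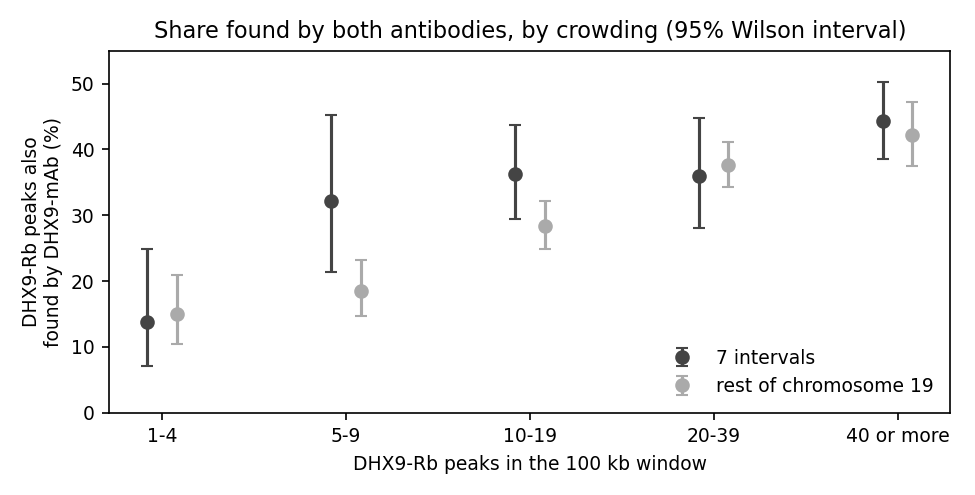
Share of DHX9-Rb peaks also found by DHX9-mAb, in percent, by the number of DHX9-Rb peaks in the 100 kb window, for the 7 intervals (dark) and the rest of chromosome 19 (light); bars are 95% Wilson intervals. Both are lowest in windows of 1 to 4 peaks, at 13.8% and 14.9%, and highest, at 44.3% and 42.3%, in windows of 40 or more peaks. The bars overlap in all 5 classes, which does not show that the shares are equal.

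Windows were then tested one by one across the genome, by a two-sided Fisher's exact test of shared and other DHX9-Rb peaks in a window against the remaining list, adjusted by Benjamini-Hochberg over 646 windows, each holding 10 DHX9-Rb peaks or more. At 0.05, 6.97% of all windows had a higher share and 0.464% a lower one. In the intervals 5 of 22 windows had a higher share and none a lower one, and 7 of 76 windows in the rest of the chromosome had a higher share. All 5 lay in Z4 and Z7. A window with more DHX9-mAb peaks for its DHX9-Rb peaks can also reach a higher share, which this test does not separate from closer agreement of sites. In Z4 the window from 37800001 to 37900000, which holds run Z4a, had 29 of 52 DHX9-Rb peaks shared (55.8%; odds ratio 3.16, Fisher's exact test, adjusted p = 0.00148). The window from 36700001 to 36800000, which holds run Z4b, had 23 of 47 (48.9%; odds ratio 2.4, exact test, adjusted p = 0.0464).

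In Z7 the most crowded window, from 58300001 to 58400000, had 36 of 74 DHX9-Rb peaks shared (48.6%; odds ratio 2.38, exact test, adjusted p = 0.00694). The windows from 58800001 to 58900000 and from 59000001 to 59100000 each had 12 of 18 (66.7%; odds ratio 5.01, exact test, adjusted p = 0.0167 for both). The first of these holds run Z7e, with 11 of 15 DHX9-Rb peaks shared, and the last holds run Z7d, with 12 of 14. Not every crowded window had a high share. The windows from 58200001 to 58300000, with 51 DHX9-Rb peaks, and from 58700001 to 58800000, with 47, had 37.3% and 27.7% shared (exact test, adjusted p = 0.449 and 1.0). Calls depended on how peaks were joined. With peaks within 50 nt merged, 2 of the 5 windows still passed, those from 58300001 and 58800001. The others kept odds ratios above 1, of 2.6 for the window from 37800001, 3.47 for that from 59000001 and 1.73 for that from 36700001 (exact test, adjusted p = 0.0555, 0.224 and 0.465). With an overlap of at least 50% of the shorter peak 3 passed, those from 37800001, 58800001 and 59000001, and the windows from 36700001 and 58300001 had odds ratios of 1.98 and 1.99 (exact test, adjusted p = 0.217 and 0.0763).

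No cluster window passed a test for unequal use by the antibodies. Peak numbers per window were compared by a two-sided Fisher's exact test, adjusted over 818 windows with at least 10 peaks, which passed 0.05 in 0.733% of windows genome-wide and in 0 of 26 windows of the intervals. Before adjustment 3 of the 26 had p under 0.05, all towards DHX9-mAb. Genome-wide 6.72% of the 818 windows had p under 0.05, and in the rest of chromosome 19 it was 7 of 87 windows, 6 of them towards DHX9-mAb. The 3 windows of the intervals were those from 37800001 (32 peaks with DHX9-mAb and 52 with DHX9-Rb, odds ratio of DHX9-mAb over DHX9-Rb 1.95), from 58300001 (39 and 74, odds ratio 1.67) and from 59000001 (13 and 18, odds ratio 2.29). Their adjusted p was 0.261, 0.451 and 0.642 by the exact test. Odds ratios over the 26 windows ran from 0.264 to 2.29 with a median of 1.18. A window with few peaks can hardly pass, so this does not show that the antibodies marked these windows alike.

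Positions were also compared within shared pairs. Shared peaks overlap by definition, which limits how far apart their midpoints can lie. Short distances are therefore no separate result on agreement of the antibodies. For the 245 shared DHX9-mAb peaks the midpoint lay a median of 39.5 nt from that of the DHX9-Rb peak with the largest overlap, and 140 (57.1%) lay within 50 nt. In the rest of the chromosome the median was 46.5 nt and 51.8% lay within 50 nt. The bases in both peaks made up a median of 58.9% of the bases in either, against 57.5% in the rest. The DHX9-Rb peak was a median of 48 nt wider in the intervals and 67 nt wider in the rest, and 44 DHX9-mAb peaks of the intervals overlapped more than 1 DHX9-Rb peak.

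The 16 DHX9-mAb peaks of the intervals without a DHX9-Rb partner mostly lay beside DHX9-Rb peaks. For 13 of them a DHX9-Rb peak of the same strand was less than 1 kb away, and the median distance was 143 nt. These distances were not taken in the rest of the chromosome, so such closeness is not shown to be particular to the clusters. Run Z7a held 3, at 6, 11 and 70 nt from a DHX9-Rb peak, the most of any run. Those farthest away were a 495 nt peak in Z3 from 21368426 to 21368920, at 37242 nt, and a 139 nt peak in Z4 from 38044246 to 38044384, at 10610 nt. In the other direction the largest run without a DHX9-mAb peak had 5 DHX9-Rb peaks, in Z4 on the plus strand from 37433075 to 37436853.

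Along the 11 runs of 20 or more peaks, peaks were counted in 3 parts in the direction of the strand. Of 170 DHX9-mAb peaks 31.8%, 37.6% and 30.6% lay in the starting, middle and closing part, each of equal length, against 36.8%, 32.6% and 30.6% of 497 in the 43 such runs of the rest. Of 356 DHX9-Rb peaks these shares were 39.6%, 34.3% and 26.1%, against 36.2%, 31.8% and 32.0% of 1105 in the rest. The closing part held the smallest share in the intervals with both antibodies. With DHX9-mAb this was 52 peaks against 54 in the starting part, and the closing part was also the smallest in the rest. No difference between parts or antibodies was tested. The ends of a run are set by its outermost peaks and not by a gene, so these parts are not parts of a transcript.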

How the data were processed

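Per the labels' protocols, ultraviolet-treated HEK293 cells were lysed and sonicated, DHX9 was captured on antibody beads, RNA was trimmed with RNase I, and adapters with barcodes and random bases were joined to it. Negative controls were mixed with experimental material before reverse transcription, so the libraries are not fully separate. Bowtie2 2.2.6 and the build hg19 are listed in the submitters' processing notes. The deposited peak positions come from PEAKachu, per the files' second column, and they carry no score. For its settings and the joining of replicates, the sources used here give nothing.

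Peaks were placed by midpoint in the intervals and in 100 kb windows. The rest of chromosome 19 was measured between its outermost peaks. Windows were tested by Fisher's exact test, adjusted by Benjamini-Hochberg over the whole genome. Both tests were checked on lists with planted windows, all of 40 or more DHX9-Rb peaks, in which peaks were kept independently of each other. That check does not cover windows with fewer peaks or the dependence between peaks of a run. Peaks of a transcript are not independent, so p-values describe these lists. Wilson intervals are at 95% and cover counting error only. Each interval's 3 largest runs, windows that passed a test, the widest peaks and the extremes of unpartnered peaks and runs were named by rule. Other places named (runs Z7d and Z7e, overlapping runs, crowded windows, further unpartnered peaks) were chosen after their values were seen. The members, rules and tests were chosen with earlier results of these data known. Sequences are not printed, because no hg19 sequence was used here. RefSeq symbols were counted by name alone. Alternatives changed the overlap rule, merging, window size, minimum number of peaks, interval borders and the gap within runs. Python 3.11.15, NumPy 2.4.6, SciPy 1.17.1, pandas 2.3.3 and matplotlib 3.10.9 were used.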

Additional observations from a re-analysis of the deposited data

How the results depend on the processing

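Of 56 alternative values of the main summaries, 48 stayed within the bounds set for them and 8 moved outside. The bounds were 1.5 times for counts, densities and widths, and the Wilson interval for shares. The number of interval windows with a high share of shared DHX9-Rb peaks, 5, became 3 with an overlap of at least 50% of the shorter peak, 3 in windows of 200 kb, 3 with at least 20 peaks and 2 with peaks within 50 nt merged. The smaller number of windows tested (10 of the 22) accounts for the change with at least 20 peaks, since the windows of 18 peaks were left out, and for the others the cause was not tested. The overlap of at least 50% lowered the shared part of the intervals to 88.1% of DHX9-mAb and 32.9% of DHX9-Rb peaks. Leaving out run Z7a, an alternative chosen after seeing the data, gave plus-strand shares of 64.0% for DHX9-mAb and 60.5% for DHX9-Rb. The largest run had 146 peaks with gaps of at most 10 or 20 kb, and with at most 5 kb the largest was Z4a with 71. No paired analysis was possible because each list stands for both replicates together. The unknown depth limits what an empty window can show.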
